A study of Homo sapiens with 24 samples.

Results

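The 9 genes described here encode enzymes of the mitochondrial tricarboxylic acid (TCA) cycle, fumarase among them: CS, IDH3A, IDH3B, IDH3G, OGDH, SUCLG1, SUCLG2, FH and MDH2. They were chosen by symbol, and all 9 were found among the 21831 genes of each deposited table. The cells were of the human line HBL-1, which was established from a diffuse large B cell lymphoma of the activated B cell-like type. DMF cultures received 20 µM dimethyl fumarate, the dimethyl ester of the cycle intermediate fumarate, dissolved in DMSO, and control cultures received DMSO. RNA was taken after 6, 12, 24 and 48 h, with 3 libraries labelled as replicates for each treatment and time and 24 libraries in all. The labels do not say whether replicates were separate cultures, so p-values measure the spread between these libraries, which may be technical. HBL-1 is a single line, so the results are those of 1 genotype.

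The TCA cycle oxidizes acetyl groups in the mitochondrial matrix and passes the electrons to the respiratory chain. Citrate synthase opens the cycle by joining acetyl-CoA to oxaloacetate, oxidative decarboxylations follow at isocitrate dehydrogenase and the 2-oxoglutarate dehydrogenase complex, and the later steps return succinate through fumarate and malate to oxaloacetate. Fumarase hydrates fumarate to malate, and its loss in hereditary leiomyomatosis and renal cell cancer lets fumarate build up. Fumarate and its esters modify cysteines of KEAP1, the adaptor that targets the transcription factor NRF2 for degradation, which links fumarate esters to the antioxidant genes that NRF2 activates.

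Promoters are shown for 5 members, chosen for their changes in the data below, for encoding fumarase, or for a motif match. CS and SUCLG2 were lower with DMF at 24 and 48 h, IDH3A was higher at 48 h, FH is the fumarase gene, and IDH3G is the member whose promoter held the antioxidant response core searched. Sequences are the 250 bases before the RefSeq start, 5′ to 3′ on the gene's strand, from RefSeq on GRCh38.p14. Entries were found for 8 of the 9 members, and OGDH is named only. The intervals are chr12:56300331-56300580 (minus strand) for CS, chr3:67654613-67654862 (minus) for SUCLG2, chr1:241519756-241520005 (minus) for FH, chr15:78149112-78149361 (plus) for IDH3A and chrX:153794376-153794625 (minus) for IDH3G. Capitals mark a match on either strand to CCAAT, to the NRF2-type antioxidant response core TGACNNNGC, or to the ETS core CCGGAAG.
CS: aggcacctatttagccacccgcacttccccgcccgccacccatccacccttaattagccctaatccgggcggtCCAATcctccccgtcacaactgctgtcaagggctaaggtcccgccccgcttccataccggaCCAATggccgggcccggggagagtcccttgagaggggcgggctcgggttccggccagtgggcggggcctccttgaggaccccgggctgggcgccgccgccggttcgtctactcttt
SUCLG2: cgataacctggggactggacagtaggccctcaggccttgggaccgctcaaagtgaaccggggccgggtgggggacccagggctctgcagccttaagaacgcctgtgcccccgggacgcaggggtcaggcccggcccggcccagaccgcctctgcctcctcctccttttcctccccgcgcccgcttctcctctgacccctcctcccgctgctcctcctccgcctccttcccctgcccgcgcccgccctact
FH: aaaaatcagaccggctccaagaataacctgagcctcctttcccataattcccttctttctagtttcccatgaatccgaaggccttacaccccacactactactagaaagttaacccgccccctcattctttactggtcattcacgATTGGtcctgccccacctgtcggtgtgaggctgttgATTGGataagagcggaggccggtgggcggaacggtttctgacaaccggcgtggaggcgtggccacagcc
IDH3A: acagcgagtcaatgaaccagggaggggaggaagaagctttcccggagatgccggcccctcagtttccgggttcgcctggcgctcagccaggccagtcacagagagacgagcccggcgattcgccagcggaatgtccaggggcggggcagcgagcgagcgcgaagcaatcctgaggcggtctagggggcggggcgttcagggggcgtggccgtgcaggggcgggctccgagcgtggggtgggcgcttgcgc
IDH3G: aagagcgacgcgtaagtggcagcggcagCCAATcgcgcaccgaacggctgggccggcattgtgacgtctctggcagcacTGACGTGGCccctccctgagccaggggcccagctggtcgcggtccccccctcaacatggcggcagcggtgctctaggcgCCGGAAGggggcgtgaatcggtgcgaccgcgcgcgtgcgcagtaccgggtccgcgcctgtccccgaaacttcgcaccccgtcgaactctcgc
TGACNNNGC was in 10.9% of 35116 RefSeq promoter windows of this length and, among the 8 members with a sequence, in IDH3G. CCAAT was in 32% of windows and in FH, CS and IDH3G. CCGGAAG was in 8.52% of windows and in MDH2, IDH3B and IDH3G. The windows of IDH3A, SUCLG1 and SUCLG2 held none of these motifs. The E-box CACGTG was in 6.34% of windows and in 0 of the 8. A match is a stretch of letters and does not show binding, and a window without a match says nothing of the factor.

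In the GENCODE annotation of GRCh38 all 9 are protein-coding genes. CS spans chr12:56271699-56300392, IDH3A chr15:78131498-78171949, IDH3B chr20:2658395-2664219 and IDH3G chrX:153785766-153794523. OGDH spans chr7:44606572-44709066, SUCLG1 chr2:84423523-84460045 and SUCLG2 chr3:67360460-67654614. FH spans chr1:241497603-241519761 and MDH2 chr7:76048051-76067508. IDH3A, OGDH and MDH2 lie on the plus strand and the other 6 on the minus strand. The promoter windows of IDH3A and SUCLG1 lie wholly inside these GENCODE spans, and the other windows overlap theirs in part. RefSeq and GENCODE thus differ on where these genes start, and motifs were searched before the RefSeq starts only. Values below are for whole genes, summed over their transcripts.

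Library totals ranged over 23097873 to 40906596 estimated reads, apart from replicate 1 of DMF at 48 h with 2870751. Replicate 3 of DMF and of control at 12 h stood apart from the rest. The mean effective transcript length in them was 2121 and 1902 bases, against 2850 to 3157 in the other 22 libraries. Tests therefore used 22 libraries, and calls with all 24 are given beside them. All 9 B cell markers listed averaged over 1 TPM (transcript abundance per length, scaled to the same sum in each library), while markers of T cells summed to at most 0.52 TPM in any DMF library and 0.74 TPM in any control library, with CD3G and CD8B at 0. Of 6 myeloid markers 1 averaged over 1 TPM, CD68 at 4.41 TPM. Of 4 epithelial markers 2 did, with EPCAM highest at 2.31 TPM, and of 4 fibroblast markers 0 did. NQO1, a standard target of NRF2, was 4.88-fold higher in DMF at 6 h and 23.8-fold higher at 48 h.

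The members moved in different directions. CS, which opens the cycle, and SUCLG2, the GTP-forming subunit of succinyl-CoA ligase, were lower in DMF cells at 12, 24 and 48 h. OGDH, the decarboxylating subunit of the 2-oxoglutarate dehydrogenase complex, was higher at 24 and 48 h, and IDH3A, the catalytic subunit of isocitrate dehydrogenase, was higher at 48 h. FH did not pass the test at 6, 24 or 48 h and was lower at 12 h. Changes were below 1.6-fold for every member at every time. A member is called here when its adjusted p was under 0.05 in the quasi-likelihood test of edgeR, after Benjamini-Hochberg correction over 13606 genes, and every adjusted p below is from that test unless another is named.

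**Figure D1:**
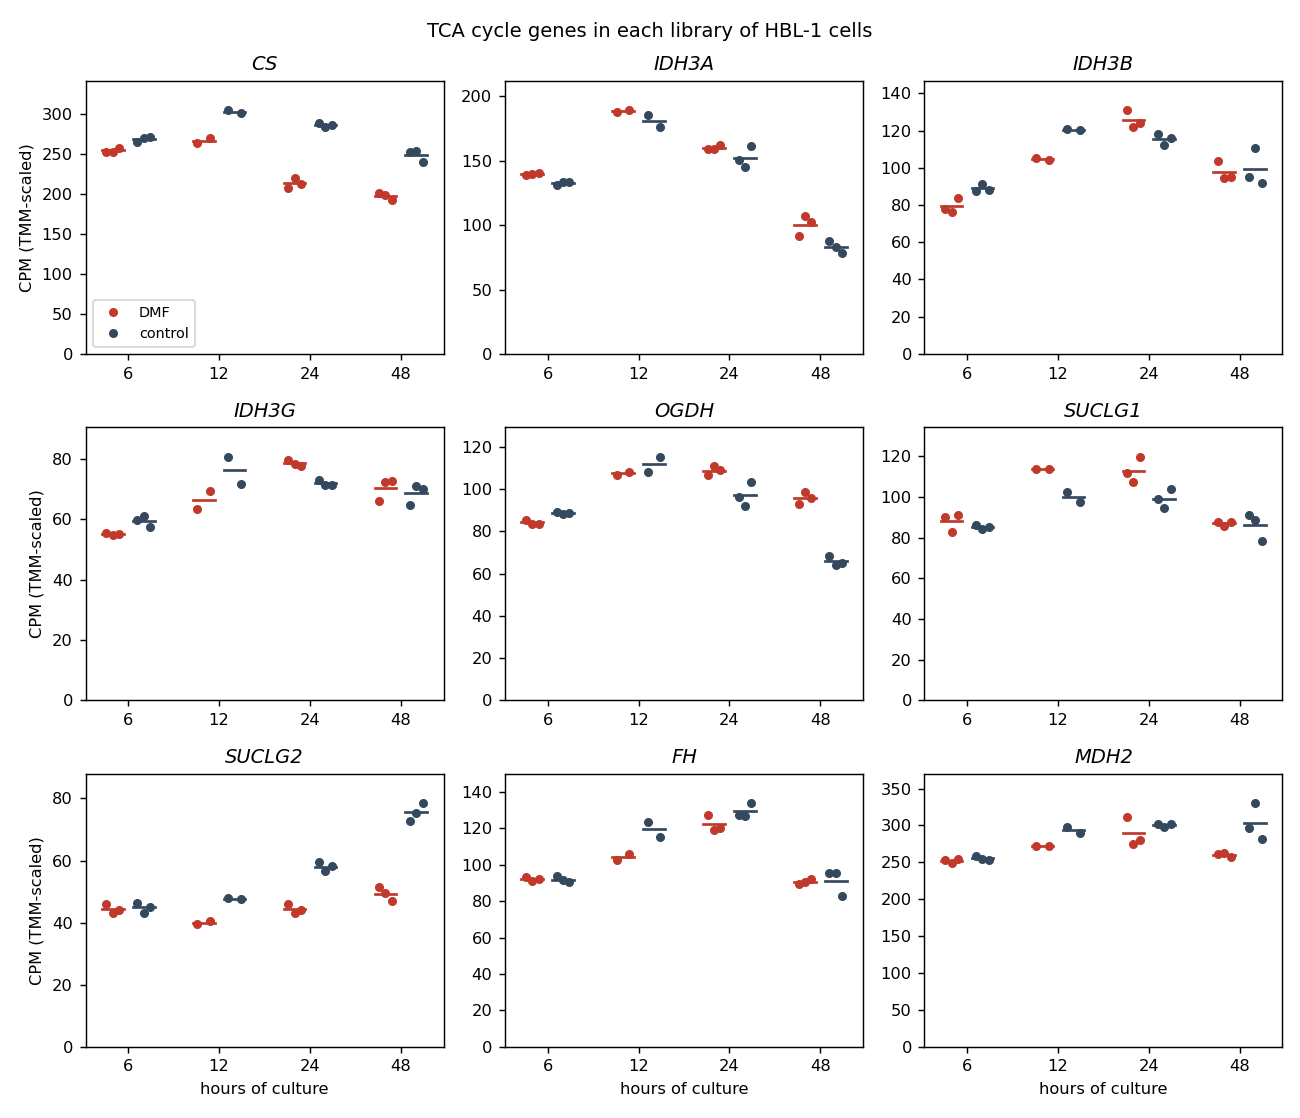
TMM-scaled CPM (read counts relative to the scaled library size) of each of the 9 members in each of the 22 libraries, by hours of culture, with DMF to the left of control at each time and bars at the means. Relative to their levels, the 48 h groups are farthest apart for SUCLG2 and OGDH, while FH points of both treatments overlap at 6, 24 and 48 h.

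Per length, MDH2 was the most abundant member in all 8 groups. Its mean lay between 182 TPM, in DMF at 6 h, and 249.7 TPM, in control at 24 h. CS came next in 6 of the 8 groups, and IDH3B, the regulatory beta subunit of isocitrate dehydrogenase, in DMF at 24 and 48 h. OGDH and SUCLG2 were the lowest pair except in control at 48 h, where OGDH at 24.4 TPM was lowest, IDH3A at 50.5 TPM next and SUCLG2 at 52.7 TPM above it. The ranges of IDH3A and SUCLG2 overlapped there, as did those of OGDH and SUCLG2 in both groups at 6 h and in DMF at 48 h. In the middle of the order, neighbours overlapped for IDH3A and FH in DMF at 6 h and in control at 12 h, for IDH3B and SUCLG1 in control at 6 and 48 h and in DMF at 24 h, and for CS and FH in DMF at 24 h. IDH3A with IDH3G in DMF at 24 h, SUCLG1 with FH in control at 24 h, CS with SUCLG1 in DMF at 48 h, and FH with IDH3G in both groups at 48 h overlapped too. Over the 8 group means the highest was 2.24 times the lowest for IDH3A, 2.02 times for SUCLG2 and 1.37 times for MDH2, and the other 6 members lay between SUCLG2 and MDH2.

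CS was lower in DMF at 3 of the 4 times. At 24 h its level was 207, 219.7 and 212 CPM in DMF and 289, 284 and 285 CPM in control. At 48 h CS stood at 201, 199 and 193 CPM in DMF and 252, 254 and 239.7 CPM in control. Every DMF library lay below every control library at both times. The log2 fold change was -0.43 ± 0.03 (SE) at 24 h (adjusted p = 8.18e-11) and -0.34 ± 0.04 at 48 h (adjusted p = 6.76e-09), and both calls held with all 24 libraries (adjusted p = 0.00458 and 0.0141). At 12 h CS was at 263 and 269 CPM in DMF and 304 and 301 CPM in control, a log2 fold change of -0.18 ± 0.04 (adjusted p = 0.000617), but with all 24 libraries it did not pass (adjusted p = 0.235). At 6 h the groups did not overlap, with 252 to 257 CPM in DMF and 265 to 271 CPM in control, and the log2 fold change of -0.08 did not pass the test (adjusted p = 0.0578). The DMF effect was larger at 24 h than at 6 h by -0.35 ± 0.05 on the log2 scale (adjusted p = 1.96e-06), which did not pass with all 24 libraries (adjusted p = 0.16).

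IDH3A, IDH3B and IDH3G encode the 3 kinds of subunit of the NAD-dependent isocitrate dehydrogenase, which yields 2-oxoglutarate. At 48 h IDH3A was at 91.5, 107 and 102 CPM in DMF and 88.0, 83.2 and 78.6 CPM in control. The groups did not overlap, although replicate 1 of DMF, the shallow library, stood only slightly above the highest control. The log2 fold change was 0.30 ± 0.05 (adjusted p = 8.06e-06, and 0.021 with all 24 libraries). At 6, 12 and 24 h IDH3A did not pass the test, with log2 fold changes of 0.08, 0.06 and 0.07, although at 24 h it did without replicate 3 of control (adjusted p = 0.0459). IDH3A had fallen in both treatments by 48 h, by 0.45 on the log2 scale in DMF and by 0.67 in control, each against 6 h.

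IDH3B and IDH3G, the regulatory beta and gamma subunits, changed in both directions, with IDH3B lower in DMF at 6 and 12 h, IDH3G lower at 12 h, and both higher at 24 h. IDH3B was at 76.4 to 83.8 CPM in DMF and 87.3 to 91.3 CPM in control at 6 h, a log2 fold change of -0.16 ± 0.05 (adjusted p = 0.0144). That call was lost when replicate 1 or replicate 2 of DMF or replicate 2 of control was left out (adjusted p = 0.0582 to 0.0882). At 12 h both fell, IDH3B by 0.20 and IDH3G by 0.20 on the log2 scale (adjusted p = 0.0106 and 0.00628), and neither passed with all 24 libraries (adjusted p = 0.406 and 0.391). The 12 h call was lost for IDH3B without replicate 2 of DMF (adjusted p = 0.0546), and for IDH3G without replicate 1 of DMF or of control (adjusted p = 0.108 and 0.181), with a log2 fold change of -0.12 without that control library. At 24 h both were called higher, IDH3B by 0.12 ± 0.05 (adjusted p = 0.0496) and IDH3G by 0.13 ± 0.05 (adjusted p = 0.0226). Neither 24 h call held with all 24 libraries (adjusted p = 0.851 and 0.89), with replicate 1 of DMF left out (adjusted p = 0.191 and 0.0621) or, by limma, on log2(TPM + 1) (adjusted p = 0.377 and 0.186). IDH3B was also lost without replicate 3 of DMF or any 1 control library (adjusted p = 0.0566 to 0.157), and IDH3G without replicate 2 or 3 of control (adjusted p = 0.0606 and 0.0631). In edgeR the 24 h call of IDH3B was lost with DESeq2 size factors and with no low-count filter (adjusted p = 0.0628 and 0.0606). It was lost as well by the DESeq2 Wald test (adjusted p = 0.0676) and by limma on TMM-scaled log2(TPM + 1) (adjusted p = 0.197). At 48 h neither passed. Within a library, the ratio of IDH3A to IDH3G TPM was 1.33 ± 0.01 in DMF and 1.16 ± 0.04 in control at 6 h (SD, n = 3 each), and 0.731 ± 0.034 in DMF and 0.623 ± 0.063 in control at 48 h. At 24 h the groups overlapped, with a ratio of 1.05 ± 0.02 in DMF and 1.09 ± 0.07 in control.

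OGDH carried the largest increase. At 48 h its level was 92.8, 98.6 and 95.8 CPM in DMF and 68.4, 64.2 and 65.2 CPM in control, so that the lowest DMF library exceeded the highest control. The log2 fold change was 0.55 ± 0.04 (95% interval 0.46 to 0.64, adjusted p = 6.05e-11), and it held with all 24 libraries (adjusted p = 0.000548). At 24 h OGDH was at 107, 111 and 109 CPM in DMF and 96.3, 91.9 and 103 CPM in control, a log2 fold change of 0.16 ± 0.04 (adjusted p = 0.00152) that did not pass with all 24 libraries (adjusted p = 0.359) or, by limma, on log2(TPM + 1) (adjusted p = 0.149). At 6 and 12 h the log2 fold changes of -0.08 and -0.06 did not pass. The effect was 0.38 ± 0.06 greater at 48 h than at 24 h (adjusted p = 1.7e-05, and 0.203 with all 24 libraries), and OGDH was the member whose effect differed between the 4 times with all 24 libraries as well (adjusted p = 0.0177). In control cells OGDH fell between 6 and 48 h by 0.43 on the log2 scale, whereas in DMF cells it was 0.20 higher at 48 h than at 6 h.

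Among the partner subunits of the complex, DLD, the lipoamide dehydrogenase, had a log2 fold change of 0.02 ± 0.04 at 48 h that did not pass (adjusted p = 0.623). DLST, the succinyltransferase core, was lower at 48 h by a log2 fold change of -0.29 ± 0.05 (adjusted p = 8.43e-06, and 0.0132 with all 24 libraries). OGDHL, a close relative of OGDH, was at 7.89 TPM on average in DMF and 19.8 TPM in control at 48 h, a log2 fold change of -1.49 ± 0.06 (adjusted p = 2.25e-16). The OGDH to DLST ratio of TPM was 1.02 ± 0.05 in DMF and 0.585 ± 0.022 in control at 48 h (SD, n = 3 each), against 0.815 ± 0.008 in DMF and 0.928 ± 0.072 in control at 6 h.

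SUCLG2 carried the largest decrease. Succinyl-CoA ligase pairs the alpha subunit SUCLG1 with either of the beta subunits, SUCLG2 forming GTP and SUCLA2 forming ATP. At 48 h SUCLG2 was at 51.4, 49.5 and 47.0 CPM in DMF and 72.8, 75.3 and 78.5 CPM in control. At 24 h it was at 45.9, 43.1 and 44.2 CPM in DMF and 59.4, 56.6 and 58.1 CPM in control. The groups were well separated at both times. The log2 fold change was -0.64 ± 0.05 at 48 h (95% interval -0.73 to -0.54, adjusted p = 8.6e-12, and 0.00939 with all 24 libraries). It was -0.39 ± 0.04 at 24 h (adjusted p = 4.33e-08), which did not pass with all 24 libraries (adjusted p = 0.14). At 12 h SUCLG2 was at 39.4 and 40.4 CPM in DMF and 47.8 and 47.7 CPM in control, a log2 fold change of -0.26 ± 0.05 (adjusted p = 0.000354, and 0.502 with all 24 libraries). At 6 h the groups overlapped and the log2 fold change was -0.02.

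SUCLG2 also moved with culture time. Between 6 and 48 h SUCLG2 rose in control by 0.75 ± 0.04 on the log2 scale (adjusted p = 4.43e-14, and 0.00133 with all 24 libraries). In DMF the difference was 0.13 ± 0.05 (adjusted p = 0.0141), which did not pass with all 24 libraries (adjusted p = 0.545). The DMF effect at 48 h lay 0.25 ± 0.06 below that at 24 h on the log2 scale (adjusted p = 0.00302, and 0.816 with all 24 libraries). SUCLA2 went the other way at 48 h, with a log2 fold change of 0.26 ± 0.04 (adjusted p = 1.6e-05, and 0.276 with all 24 libraries). The SUCLG2 to SUCLA2 ratio of TPM was 0.513 ± 0.010 in DMF and 0.948 ± 0.054 in control at 48 h, and 0.402 ± 0.012 in DMF and 0.597 ± 0.010 in control at 24 h (SD, n = 3 each). At 6 h the ratio was higher in DMF, with 0.509 to 0.533 in DMF and 0.455 to 0.501 in control.

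SUCLG1, the shared alpha subunit, was at 107 to 119.8 CPM in DMF and 94.7 to 104 CPM in control at 24 h, a log2 fold change of 0.19 ± 0.05 (adjusted p = 0.00272, and 0.678 with all 24 libraries). At 12 h the log2 fold change was 0.18 ± 0.06 (adjusted p = 0.0181), and the call was lost without replicate 2 of control or either DMF library (adjusted p = 0.0817 to 0.15), with all 24 libraries (adjusted p = 0.899) and with scaling by library totals (adjusted p = 0.258). The 12 h call was also lost on log2(TPM + 1), at 0.07 (adjusted p = 0.403, limma). At 6 and 48 h SUCLG1 did not pass. At 48 h it was nevertheless called higher on log2(TPM + 1), at 0.25 (adjusted p = 0.000171, limma). The same held at 48 h with library totals, at 0.12 (adjusted p = 0.0452, edgeR).

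**Figure D2:**
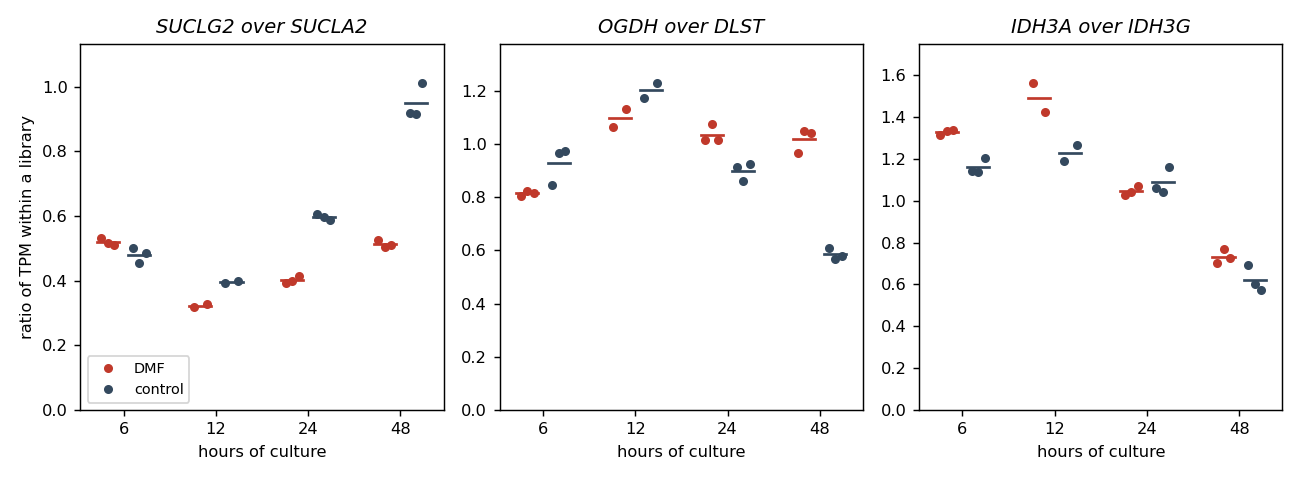
Ratios of TPM within each library for SUCLG2 over SUCLA2, OGDH over DLST and IDH3A over IDH3G, by hours of culture, with DMF to the left of control and bars at the means. At 48 h SUCLG2 over SUCLA2 averaged 0.513 in DMF and 0.948 in control, and OGDH over DLST 1.02 in DMF and 0.585 in control.

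FH encodes fumarase, whose substrate fumarate is the acid of the drug's ester. Its level was 93.2, 90.9 and 92.2 CPM in DMF and 93.9, 91.4 and 90.3 CPM in control at 6 h. At 24 h it was 128, 119 and 120.3 CPM in DMF and 128, 127 and 134 CPM in control, and at 48 h 89.3, 90.4 and 92.0 CPM in DMF and 95.4, 95.4 and 83.1 CPM in control. The groups overlapped at all of these times. The 95% interval of the log2 fold change was -0.09 to 0.10 at 6 h, -0.18 to 0.01 at 24 h and -0.11 to 0.10 at 48 h. Scaled by TPM alone, which moves the median of all genes, the FH log2 fold change was -0.14 at 6 h, -0.14 at 24 h and 0.22 at 48 h, each past the threshold by limma (adjusted p = 0.0072, 0.00701 and 5.34e-05).

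At 12 h FH was at 103 and 106 CPM in DMF and 124 and 115 CPM in control. The 2 libraries of each treatment did not overlap, and the log2 fold change was -0.20 ± 0.06 (95% interval -0.31 to -0.08, adjusted p = 0.00552). The call was lost without replicate 1 of control (adjusted p = 0.0949) and with all 24 libraries, where the log2 fold change was -0.26 (adjusted p = 0.378). Whether the DMF effect on FH differed between the 4 times did not pass the test (adjusted p = 0.0682), but all 9 members did without replicate 3 of control at 48 h, the library with the lowest FH of its group. FH also moved with culture time. In control cells it was 0.50 ± 0.05 higher on the log2 scale at 24 h than at 6 h (adjusted p = 1.96e-09, and 0.0596 with all 24 libraries) and at 48 h its log2 difference from 6 h was -0.01.

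The genes most like FH across the 22 libraries, by Pearson correlation of log2 CPM among 9677 genes of at least 5 CPM on average, were GOT2 (r = 0.935), DPM1 (r = 0.933), DLD (r = 0.932), NAA10 (r = 0.93) and ZWINT (r = 0.924). These correlations describe libraries that share 8 groups and a common culture time course. GOT2, the mitochondrial aspartate aminotransferase, averaged 142 ± 2 CPM in DMF and 175 ± 3 CPM in control at 24 h (SD, n = 3 each), so it was separated by treatment at a time when FH was not. Among the members, IDH3B was most like FH (r = 0.826) and SUCLG2 least (r = -0.08).

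MDH2, which oxidizes malate to oxaloacetate and closes the cycle, was at 261, 263 and 257 CPM in DMF and 297, 330.3 and 282 CPM in control at 48 h. The groups did not overlap, and the highest control value was that of replicate 2, whose mean effective length of 2850 bases was the lowest of the 22 libraries. Without that library the log2 fold change was -0.14 (adjusted p = 0.00567). The log2 fold change of -0.22 ± 0.05 (adjusted p = 0.000302) did not pass with all 24 libraries (adjusted p = 0.681) and was 0.04 on log2(TPM + 1) without further scaling (adjusted p = 0.244). At 6, 12 and 24 h MDH2 did not pass, with log2 fold changes of -0.02, -0.11 and -0.06, although at 24 h it did without replicate 1 of DMF (adjusted p = 0.0406). At 12 h the groups did not overlap, and MDH2 passed when only the groups compared were fitted (adjusted p = 0.0406, edgeR). On log2(TPM + 1) it was called lower at 6, 12 and 24 h (adjusted p = 4.3e-05, 4.51e-05 and 0.00916, limma). With library totals it was called lower at 6 and 12 h (adjusted p = 0.0102 and 0.00133, edgeR).

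**Figure D3:**
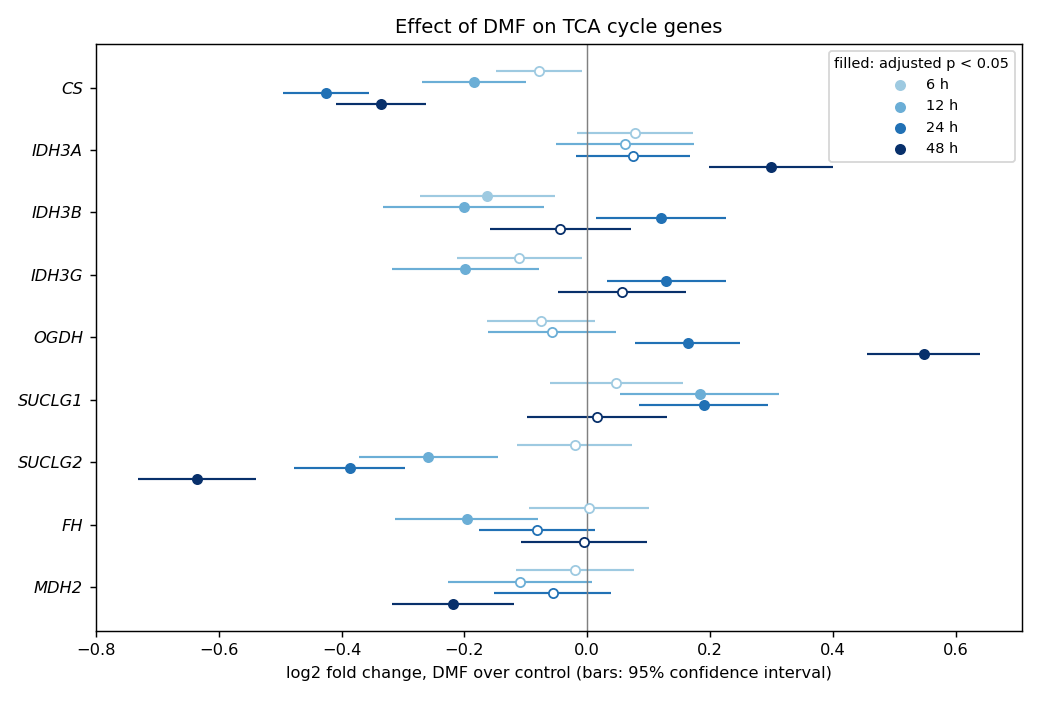
Log2 fold change of DMF over control for each of the 9 members at 6, 12, 24 and 48 h, with 95% intervals from the fit to 22 libraries. SUCLG2 reaches -0.64 and OGDH 0.55 at 48 h, and the intervals of FH cross 0 at 6, 24 and 48 h.

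Counted together, 0 members were called higher and 1 lower at 6 h, with 0 and 3 at an unadjusted p under 0.05 and 1 member called by DESeq2, where 23.8% of all genes tested were called higher and 23.4% lower. At 12 h 1 was higher and 5 were lower, against 24.1% and 23.8% of all genes. At 24 h 4 were higher and 2 lower, against 29.5% and 27.9%. At 48 h 2 were higher and 3 lower, against 33.6% and 30.9%. With all 24 libraries the counts in either direction were 0, 0, 1 and 4 at the 4 times in order, where 10.6%, 17.3%, 14.4% and 25.8% of 13419 genes were called by edgeR. At an unadjusted p under 0.05 those counts were 0, 0, 2 and 4. The median log2 fold change of the members was -0.02, -0.18, 0.07 and -0.01 at the 4 times in order, and that of all genes tested 0.00, 0.00, 0.01 and 0.02. At 48 h the size of the SUCLG2 change exceeded that of 73.9% of all genes tested, and OGDH exceeded 68.5%, while FH exceeded 0.897%.

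Those directions are relative to TMM scaling, which holds the bulk of genes level. On log2(TPM + 1) the median of all genes lay at -0.10 at 6 h, -0.07 at 12 h, -0.03 at 24 h and 0.17 at 48 h, and the share of called genes that were higher was 22.5%, 29.2%, 43.4% and 73.6% in that order, against 50.5%, 50.3%, 51.4% and 52% with TMM. With library totals that share was 27.9%, 33.6%, 55.9% and 63.7%. The falls of CS and SUCLG2 at 12, 24 and 48 h and the rises of OGDH and IDH3A at 48 h kept their direction and call under TPM and under library totals, but their sizes moved. On log2(TPM + 1) the log2 fold change at 48 h was -0.10 for CS (adjusted p = 0.0221, limma), -0.37 for SUCLG2 and 0.49 for IDH3A. At 12 h CS was at -0.30 on that scale and -0.28 with library totals. At 24 h the mean effective length was 2890 to 3028 bases in DMF and 3088 to 3099 bases in control, and its part in the differences at that time was not tested.

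Culture time moved the members in control cells as well. Against 6 h, 8 of the 9 were called at 12 h, where 39.6% of all genes were, and SUCLG2 was not. The 8 were all higher, where 21.1% of all genes were called higher. At 24 h all 9 were called, against 56.5% of genes, and all 9 were higher, against 28.8% of genes called higher. At 48 h 7 were called, against 75.0% of genes: SUCLG2, MDH2, IDH3G and IDH3B were higher and IDH3A, OGDH and CS lower. In DMF cells 6 were called between 6 and 48 h, against 73.1% of genes. With all 24 libraries these 4 edgeR counts were 5, 0, 3 and 2 (7, 3, 3 and 2 at an unadjusted p under 0.05), where 18.8%, 16.8%, 42.0% and 39.6% of all genes were called. The DMF effect itself differed between 24 and 6 h for 5 members, against 44.4% of genes, between 48 and 24 h for 3, against 41.2%, and over all 4 times for 6, against 69.1%. With all 24 libraries those edgeR counts were 0, 0 and 1, the first pair being 1 and 1 at an unadjusted p under 0.05, where 6.48%, 3.12% and, for the last, 2015 of 13419 genes were called. The count between 48 and 24 h was 6 without replicate 3 of control at 48 h, 5 without replicate 2 of DMF at 24 h and 2 without replicate 2 of DMF at 48 h.

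The libraries that stood apart differed unevenly across the members. In replicate 3 of control at 12 h, SUCLG2 was at 19.6% of the mean TPM of replicates 1 and 2, CS at 27.5%, IDH3A at 29.9% and OGDH at 32.4%. FH was at 60.4%, MDH2 at 104% and IDH3G at 129% in the same library. Replicate 3 of DMF ran in a like order, with SUCLG2 at 33.6%, CS at 39.1%, FH at 77.5% and IDH3G at 122%.

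**Figure D4:**
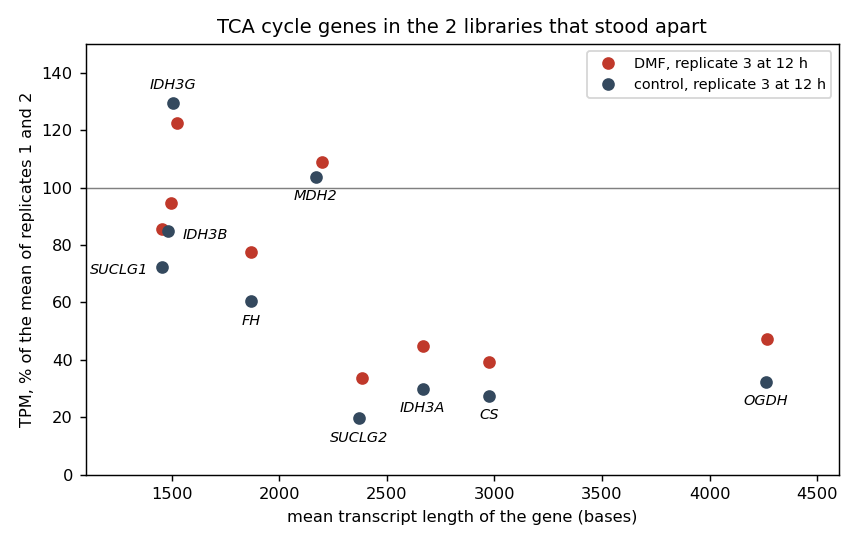
TPM of each member in replicate 3 at 12 h as a percentage of the mean of replicates 1 and 2 of the same group, for DMF and control, against the mean transcript length of the gene in bases. SUCLG2 is lowest at 33.6% in DMF and 19.6% in control, and IDH3G highest at 122% in DMF and 129% in control.

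Other enzymes and subunits of the cycle moved in a mixed way too. Of 8 (DLST, DLD, SUCLA2, SDHA, SDHB, SDHC, SDHD and OGDHL), 2 were called higher and 3 lower at 6 h, against 23.8% and 23.4% of all genes, while at 12 h 2 were higher and 2 lower, against 24.1% and 23.8%. At 24 h 5 of them were higher and 2 lower, against 29.5% and 27.9%, and at 48 h 3 were higher and 3 lower, against 33.6% and 30.9%. Their median log2 fold change was -0.05, 0.03, 0.15 and 0.04 at the 4 times in order. SDHC, a membrane anchor of succinate dehydrogenase, was higher at all 4 times, by 0.17, 0.17, 0.37 and 0.29 on the log2 scale. OGDHL was lower at all 4 times. With all 24 libraries the 6 h calls of SDHC and OGDHL were lost (adjusted p = 0.168 and 0.159), and those at the other 3 times held for both. Of the enzymes other than fumarase that handle fumarate, the 3 that form it in purine, urea-cycle and tyrosine metabolism were tested, and the shares of all genes just given apply to their counts. At 6 h 0 were called higher and 1 lower, and likewise at 12 h. At 24 h 2 were higher and 1 lower, whereas at 48 h 1 was higher and 2 were lower. ADSL, of purine synthesis, was lower at all 4 times, with log2 fold changes of -0.21, -0.43, -0.28 and -0.49, though none passed with all 24 libraries (adjusted p = 0.0837 to 0.682). FAH, the last enzyme of tyrosine breakdown, was higher by a log2 fold change of 0.47 at 24 h and 0.35 at 48 h (adjusted p = 7.96e-07 and 6.93e-05, and 0.497 and 0.606 with all 24 libraries). ASL, the argininosuccinate lyase of the urea cycle, had a log2 fold change of 0.46 at 24 h and -0.43 at 48 h (adjusted p = 0.00189 and 0.00333, and 0.542 and 0.474 with all 24 libraries).

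Genes that feed the cycle were tested too. Of 13 tested genes of pyruvate entry, 7 were called higher and 3 lower at 48 h, against 33.6% and 30.9% of all genes, with a median log2 fold change of 0.17. MPC1 and MPC2, which form the mitochondrial pyruvate carrier, rose by 1.27 ± 0.06 and 0.89 ± 0.05 on the log2 scale (adjusted p = 4.11e-15 and 7.04e-14). PDK1, a kinase that inhibits pyruvate dehydrogenase, was at 0.499 times its control level (adjusted p = 3.91e-14). All 3 calls held with all 24 libraries (adjusted p = 1.61e-09, 0.00017 and 0.00043). PDK4 was below the filter on low counts.

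Among 8 tested cytosolic and NADP-linked counterparts, 0 were called higher and 4 lower at 48 h by edgeR, with the same counts at an unadjusted p under 0.05, against 33.6% and 30.9% of all genes. IDH2, the mitochondrial NADP-dependent isocitrate dehydrogenase, fell by 1.59 ± 0.06 on the log2 scale (adjusted p = 1.31e-17, and 1.49e-05 with all 24 libraries), whereas IDH3A rose. ME1 and PCK1 were below the filter. Of 8 tested genes of amino acid entry, 6 were higher and 1 lower at 6 h, against 23.8% and 23.4% of all genes, led by GPT2, the mitochondrial alanine aminotransferase, at 1.26 ± 0.06 (adjusted p = 1.05e-15). At 12 h 5 were higher and 2 lower, against 24.1% and 23.8%, with GPT2 at 0.67 ± 0.07 (adjusted p = 1.83e-08). At 24 h 1 was higher and 5 lower, against 29.5% and 27.9%, with GPT2 at -0.88 ± 0.06 (adjusted p = 2e-12). At 48 h 2 were higher and 3 lower, against 33.6% and 30.9%. GPT2 was then at 0.29 ± 0.07 (adjusted p = 0.000397, and 0.261 with all 24 libraries). GLUD2 and GPT were below the filter. Of the 8 carriers of cycle intermediates, 3 were higher and 3 lower at 48 h, against 33.6% and 30.9%. SLC25A21, the oxodicarboxylate carrier, was at -1.56 ± 0.16 (adjusted p = 6.42e-09). SLC25A18, a mitochondrial glutamate carrier, was at 0.56 to 1.56 TPM in DMF and 0.11 to 0.24 TPM in control, a log2 fold change of 1.90 ± 0.34 (adjusted p = 2.58e-05, and 0.000499 with all 24 libraries). SLC25A11, the oxoglutarate carrier, was at 0.48 ± 0.06 (adjusted p = 1.58e-07, and 0.0504 with all 24 libraries). At 24 h SLC25A11 was higher too, at 0.52 (adjusted p = 1.33e-08, and 0.0355 with all 24 libraries). It was lower at 6 and 12 h, at -0.44 and -0.23 (adjusted p = 2.23e-06 and 0.00604, and 0.0967 and 0.199 with all 24 libraries). Of the 4 assembly factors of succinate dehydrogenase, 0 were higher and 2 lower at 48 h by edgeR, also at an unadjusted p under 0.05, against the same 33.6% and 30.9%. At that time SDHAF1 was at -0.40 and SDHAF4 at -0.90 (adjusted p = 3.69e-05 and 0.00218), and neither passed with all 24 libraries (adjusted p = 0.424 and 0.0774). At 24 h, by contrast, 3 of the 4 were higher and 0 lower, against 29.5% and 27.9% of all genes. SDHAF1 was then at 0.24 and SDHAF4 at 0.81 (adjusted p = 0.00429 and 0.0197, and 0.735 and 0.223 with all 24 libraries).

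Counts of some members rest on shared reads. The deposited estimates were fractional in 22 of 24 libraries for MDH2, in 17 for IDH3A and in 2 each for IDH3G and OGDH. RSEM gives fractions where reads map to more than 1 gene, so these members are uncertain to that extent. CS and SUCLG1 had 1 annotated transcript each and whole counts throughout. The lowest count of any member in the 22 libraries was 164, for SUCLG2. In a bulk culture, fewer cells with a transcript and less transcript per cell cannot be told apart.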

How the data were processed

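Total RNA of HBL-1 cells was isolated with a Qiagen RNeasy kit and sequenced on Illumina libraries, per the labels' protocols. HISAT2, HISAT, RSEM and GRCh38.p12 are named in the submitters' processing notes, with no versions. The deposited tables hold the authors' expected counts (estimated reads per gene, not normalized) and the authors' TPM. TPM is scaled to the same sum in each library and affected by each library's effective lengths. Of all expected counts in a library, zeros included, 6.16% to 11.5% were not whole. Expected counts were rounded, filtered with filterByExpr and scaled by TMM, and tested with edgeR 4.0.16 (R 4.3.3) on 22 libraries with 1 mean per group. Benjamini-Hochberg adjustment ran over 13606 genes and calls were made at 0.05. Replicate 3 of DMF and control at 12 h was left out, and all 24 libraries served as an alternative. CPM are TMM-scaled, and TPM served to compare genes. The script was tested on simulated data. DESeq2 1.42.0 and limma 3.58.1 (log2(TPM + 1)) were alternatives, as were no filter, other scaling, a replicate block and leaving out each replicate. No replicate pair looked like 1 library deposited again (chi-square per degree of freedom at least 1.85). The members and lists were chosen with earlier results of these data known. All members are named, and of each other list the genes called with the 2 highest and 2 lowest log2 fold changes per time, with further subunits named for comparison after their values were seen. A gene of the cycle outside the members is not reported here and was left out of its list.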

Additional observations from a re-analysis of the deposited data

Results flagged for a closer look

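For 6 members the DMF effect differed between times by a test of the difference itself in edgeR. Over the 4 times, 69.1% of all genes tested were called in that test. The share was 44.4% between 6 and 24 h and 41.2% between 24 and 48 h, so such differences were common and not particular to the members. Between 6 and 24 h the effect on CS moved by -0.35 on the log2 scale and that on SUCLG2 by -0.37. Over the same interval the effect moved by 0.28 for IDH3B, 0.24 for IDH3G and 0.24 for OGDH. Between 24 and 48 h it moved by 0.22 for IDH3A, by 0.38 for OGDH and by -0.25 for SUCLG2. With all 24 libraries none of these 8 differences passed in edgeR (0 members called in each interval, 1 in each at an unadjusted p under 0.05).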

How the results depend on the processing

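With all 24 libraries, 1425, 2324, 1933 and 3465 genes were called at 6, 12, 24 and 48 h, against 6421, 6515, 7805 and 8775 with 22. Members called were 0, 0, 1 and 4, against 1, 6, 6 and 5. For time in control they were 5, 0 and 3 at 12, 24 and 48 h against 6 h (8, 9 and 7 with 22 libraries), and for DMF at 48 against 6 h 2 (6). For the difference of the DMF effect they were 0 at 24 minus 6 h (5), 0 at 48 minus 24 h (3) and 1 over the 4 times (6). The dispersion was 0.0521 with 24 libraries and 0.00212 with 22. At 6 h 5 members were called when only the groups compared were fitted, and 7 on log2(TPM + 1) and 7 with library totals, and at 48 h 8 on log2(TPM + 1). Among values called in either fit, the sign changed on log2(TPM + 1) for FH (-0.14 at 6 h, 0.22 at 48 h), IDH3B (0.22 at 48 h) and MDH2 (0.0422 at 48 h), and with library totals for FH at 6 h (-0.11). Over the alternatives 21 values called in neither fit also took the other sign, on log2(TPM + 1) those of IDH3A (-0.06 at 6 h, -0.05 at 12 h) and SUCLG1 (-0.09 at 6 h) among them. The cause was not tested. Library totals and TMM-scaled TPM were chosen after seeing the data, and with the latter 35 of the 36 member values kept their call and direction.

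Leaving out 1 library at a time gave 5657 to 5781 genes at 6 h, 5348 to 5399 at 12 h, 7110 to 7471 at 24 h and 7839 to 8622 at 48 h. Members called ranged over 0 to 1, 4 to 5, 4 to 6 and 5 to 5 at these times. For control they were 8 to 8 at 12 h, 8 to 9 at 24 h and 6 to 7 at 48 h, and for DMF 5 to 6. For the difference at 24 minus 6 h they were 5 to 5, at 48 minus 24 h 2 to 6, and over the 4 times 5 to 9. Where a group was left with 1 library, it was assumed to vary like the others.

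Whether replicate numbers pair the libraries was not settled. Of 11 pairs of same-numbered libraries, 2 had deviations from their group means correlated above 0.1 (-0.11 to 0.19). At 12 h only 2 libraries per group were used, so the correlations of replicates 1 and 2 (0.06) are equal by construction. Replicate 3 at 12 h, which stood apart in both treatments, was not among these pairs. With a replicate block, 6380, 6466, 7768 and 8691 genes were called, and 1 member call changed, IDH3B at 24 h (adjusted p = 0.0607, edgeR). The 2870751 reads of replicate 1 of DMF at 48 h limit the precision there.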
